A study of Mus musculus with 6 samples.

Results

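The 10 genes described here encode subunits of voltage-gated calcium channels, and they were chosen by name from the 55426 features of the table with results of the same comparison known. They are the pore-forming genes Cacna1a, Cacna1c, Cacna1d, Cacna1g and Cacna1h, the α2δ genes Cacna2d1 and Cacna2d2, and the β genes Cacnb1, Cacnb2 and Cacnb3. All 10 were found in the table by their Ensembl identifiers in GENCODE release M21, and the mouse family holds 16 more subunit genes. Pancreatic stellate cells (PSCs), fibroblast precursors isolated from the pancreas of wild-type C57/BL6 mice and used as early-passage lines, were kept for 48 h in Matrigel in a transwell insert. mT3 organoids, grown from a cell line of a KPC mouse pancreatic ductal adenocarcinoma (PDAC), were in the compartment below in every sample. RNA was sequenced from 3 PSC samples at 21% O2 (normoxic) and 3 at 1% O2 (hypoxic). The labels do not say whether they came from separate lines, so p-values measure the spread between these samples, which may be technical. Between samples of the same condition the spread exceeded counting error, with a chi-square per degree of freedom of 6.08 to 23.6. That does not tell separate lines from separate cultures of the same line. The deposited values are estimated reads per gene, with totals from 24749601 to 31925054 per sample.

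Voltage-gated calcium channels open when the membrane depolarizes and let calcium into the cell, and they are best known from muscle, nerve and endocrine cells. The pore-forming subunit sets the type of the channel. L-type channels (Cacna1c, Cacna1d) and P/Q-type channels (Cacna1a) need a strong depolarization, whereas T-type channels (Cacna1g, Cacna1h) open close to the resting potential and close again quickly. Pores of the high-voltage types are brought to the membrane by a cytosolic β subunit, which binds the loop after the first repeat of the pore, and by an extracellular α2δ subunit. T-type pores lack that binding site and conduct without a β subunit.

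The condition and the cell type were checked first. Car9, Slc2a1, Vegfa, Egln3, Pdk1 and Bnip3, genes that most cells raise at low oxygen, were all called higher in hypoxic PSCs, and Car9 went from 1.98 ± 0.26 to 69.2 ± 5.55 CPM (the read count scaled to library size, here by the TMM method; SD, n = 3 each). A summed level of 10 stellate cell and fibroblast markers was between 28087 and 35235 CPM in normoxic and between 30300 and 35091 in hypoxic samples, most of it from the collagen genes Col1a1, Col1a2 and Col3a1. Within that list Lum was called lower (221 ± 39.9 to 49.1 ± 12.9 CPM), and Pdgfra (568 ± 34.4 to 999 ± 41.7 CPM) and Pdpn (215 ± 16.4 to 426 ± 22.4 CPM) were called higher (SD, n = 3 each). Reads of endocrine, neuronal and striated muscle markers were few, apart from Tubb3, and those of smooth muscle markers were not. The summed 9 islet and acinar markers reached at most 0.873 CPM, with Gcg, Sst, Pdx1, Cpa1 and Prss1 at 0 in every sample, and the neuronal genes Snap25, Syt1, Rbfox3 and Elavl4 had 0 or 1 count in each. The 9 neuronal and glial markers together were at 26 to 31.3 CPM in normoxic and 32.6 to 34.6 in hypoxic samples, most of it from Tubb3. Striated muscle markers summed to 2.04 to 6.15 CPM in normoxic and 3.53 to 4.59 in hypoxic samples, with Myog and Ckm at 0, Tnnt3 called higher (19, 51 and 43 to 65, 88 and 116 counts) and Tnnt2 called lower (17, 91 and 34 to 0, 6 and 1 counts). Endothelial markers were at 12.4 to 17.4 CPM in normoxic and 19.7 to 27.9 in hypoxic samples, with Tek and Vwf called higher and Kdr lower.

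The 8 smooth muscle and pericyte markers were at 402 to 617 CPM in normoxic and 362 to 404 in hypoxic samples, with 2 called higher (Rgs5, 15.2 ± 1.47 to 27.3 ± 3.36 CPM, and Kcnj8, 4.49 ± 1.56 to 8.13 ± 3.54 CPM) and 2 lower (Myh11, 27.5 ± 6.22 to 8.15 ± 1.60 CPM, and Acta2, 234 ± 55.5 to 149 ± 16.8 CPM; SD, n = 3 each). The 8 macrophage and leukocyte markers were at 797 to 1403 CPM in normoxic and 410 to 723 CPM in hypoxic samples, most of it from Lyz2 (900 ± 256 and 413 ± 119.5 CPM, SD, n = 3 each). Of the 8, 5 were called lower, and Itgam, Csf1r and Ptprc were not called. The 7 epithelial markers were at 0.493 to 1.62 and 20.8 to 24.0 CPM, with Krt19 at 27, 12 and 16 counts in normoxic and 525, 681 and 760 in hypoxic samples, where it made up nearly all of the sum, while Epcam and Cdh1 had 0 or 1 count in each sample. The part of these cell types in the results below was not tested, and in bulk samples fewer cells of a type and less RNA per cell cannot be told apart.

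Start-site windows were read from a RefSeq table on GRCm38.p6, 250 bases before to 50 bases after each annotated start. It held 13 windows for 7 of the 10 genes and no entry for Cacna1a, Cacna1g and Cacna1h. All windows of Cacnb1 and Cacnb3, which were higher in hypoxic PSCs, and of Cacna1d, which was lower, are printed so that their sequences can be set beside the direction of change. Capitals mark ACGTG or GCGTG on either strand (CACGT and CACGC where the match is on the opposite one), the letters found at the core of sites bound by hypoxia-inducible factors. The 6 windows read as follows.
Cacnb1 (chr11:98018323-98018622, minus strand): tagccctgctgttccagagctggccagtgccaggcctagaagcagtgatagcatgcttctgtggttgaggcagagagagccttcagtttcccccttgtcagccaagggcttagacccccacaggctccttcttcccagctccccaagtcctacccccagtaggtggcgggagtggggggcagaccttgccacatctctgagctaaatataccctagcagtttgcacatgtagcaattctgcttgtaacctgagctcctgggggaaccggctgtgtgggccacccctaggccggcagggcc
Cacnb1 (chr11:98022578-98022877, minus strand): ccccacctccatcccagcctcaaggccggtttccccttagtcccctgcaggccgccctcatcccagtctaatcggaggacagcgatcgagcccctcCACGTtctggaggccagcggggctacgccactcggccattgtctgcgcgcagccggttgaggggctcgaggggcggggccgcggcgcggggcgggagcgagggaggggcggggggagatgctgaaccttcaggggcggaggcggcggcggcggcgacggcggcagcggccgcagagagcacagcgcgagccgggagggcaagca
Cacnb3 (chr15:98632078-98632377, plus strand): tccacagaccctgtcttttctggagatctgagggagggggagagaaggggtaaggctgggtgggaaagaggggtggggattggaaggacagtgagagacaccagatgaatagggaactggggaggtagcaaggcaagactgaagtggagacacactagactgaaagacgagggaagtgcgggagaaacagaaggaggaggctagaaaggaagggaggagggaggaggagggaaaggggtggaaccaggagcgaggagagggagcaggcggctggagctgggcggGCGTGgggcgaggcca
Cacnb3 (chr15:98634517-98634816, plus strand): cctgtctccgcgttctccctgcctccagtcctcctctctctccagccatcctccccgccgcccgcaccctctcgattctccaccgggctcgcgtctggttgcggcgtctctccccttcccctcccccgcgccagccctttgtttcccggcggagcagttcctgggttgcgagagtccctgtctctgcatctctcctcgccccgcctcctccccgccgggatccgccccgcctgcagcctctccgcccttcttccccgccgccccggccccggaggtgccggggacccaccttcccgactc
Cacna1d (chr14:30353437-30353736, minus strand): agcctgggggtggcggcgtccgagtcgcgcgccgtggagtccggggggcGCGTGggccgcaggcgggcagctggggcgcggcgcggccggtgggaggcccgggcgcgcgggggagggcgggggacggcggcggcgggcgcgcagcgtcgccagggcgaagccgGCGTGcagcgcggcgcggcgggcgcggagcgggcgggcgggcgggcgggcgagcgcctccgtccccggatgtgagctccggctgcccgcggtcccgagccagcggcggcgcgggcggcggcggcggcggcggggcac
Cacna1d (chr14:30491107-30491406, minus strand): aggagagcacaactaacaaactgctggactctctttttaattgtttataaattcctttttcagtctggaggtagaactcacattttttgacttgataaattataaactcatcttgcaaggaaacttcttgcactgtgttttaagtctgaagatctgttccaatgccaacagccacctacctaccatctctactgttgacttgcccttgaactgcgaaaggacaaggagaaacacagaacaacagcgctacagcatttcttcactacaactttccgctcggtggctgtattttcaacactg

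ACGTG or GCGTG stood in 7 of the 13 windows of the listed genes and in 43.8% of the 32851 windows of the whole table. ACGTG stood in 19.6% of all windows and GCGTG in 32.4%, and windows that held both count in each share. Of the printed windows, 1 of Cacnb1 held ACGTG, 1 of Cacnb3 held GCGTG downstream of the start, and 1 of Cacna1d, the gene with the opposite change, held GCGTG at 2 places. Cacna1c, Cacna2d1, Cacna2d2 and Cacnb2, whose windows are not printed and which were not called, each had a window with a match as well. The match is of letters only, the table of counts does not tell which start was used, and binding was not measured.

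Of the 10 genes, 9 passed the filter on low counts, and Cacna2d2 did not. A gene is written of as called where its fold change, up or down, exceeded 1.5 and its Benjamini-Hochberg adjusted p in the edgeR quasi-likelihood fit over 16207 genes was below 0.05. By that rule 3 of the 9 were called higher in hypoxic PSCs (Cacna1h, Cacnb1 and Cacnb3) and 2 lower (Cacna1d and Cacna1a), where 34.2% of all tested genes were called, 18.9% higher and 15.3% lower. The genes were chosen on this contrast, so their changes are described with a standard error and no p, and nothing is read from the share. Cacna1h thus did not rise alone among the 9, but it was the 1 of their 5 pore-forming genes called higher and its change was far larger than that of both β genes. Outside the 10, the pore-forming gene Cacna1b was also called higher, a less firm call that is described below. The median log2 fold change of the 9 was 0.38, against 0.00 (-0.0040) over all tested genes.

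**Figure D1:**
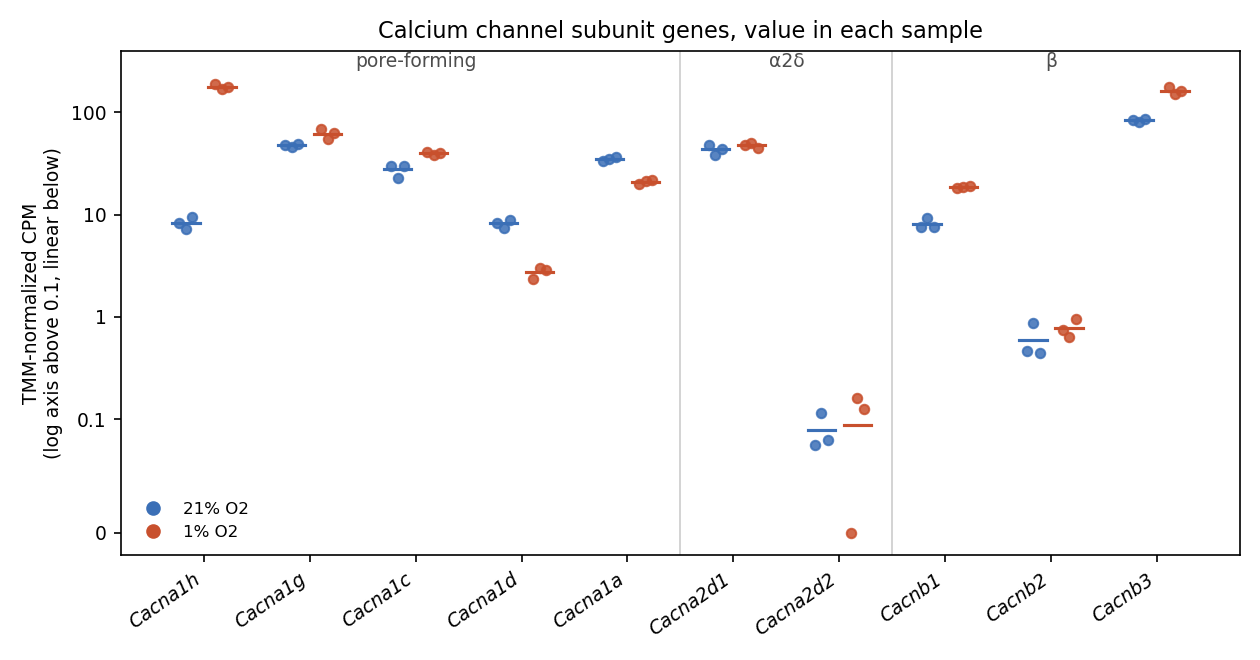
TMM-normalized CPM of the 10 subunit genes in each of the 6 PSC samples, on an axis that is logarithmic above 0.1 and linear below; points are samples, short lines are means of 3, blue is 21% O2 and orange 1% O2. Cacna1h moves from 7.25 to 9.53 CPM in normoxic samples to 170 to 187 in hypoxic samples, while Cacna1d and Cacna1a move down.

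Cacna1h (ENSMUSG00000024112; chromosome 17 of GRCm38, 25374285 to 25433783, minus strand) encodes a T-type pore. It had 214, 191 and 235 counts in normoxic replicates 1, 2 and 3 and 4770, 5323 and 5622 in hypoxic replicates 1, 2 and 3. After scaling, the normoxic samples held 8.24, 7.25 and 9.53 CPM and the hypoxic samples 187, 170 and 177. The lowest hypoxic sample was far above the highest normoxic one, and within each condition the samples lay close together. The mean went from 8.34 ± 1.15 to 178 ± 8.80 CPM (SD, n = 3 each), a 21.4-fold change (log2 fold change 4.42, standard error 0.09), which placed the gene at rank 79 of 16207 by log2 fold change. With each sample left out in turn the log2 fold change ran from 4.32 to 4.52. Exons of Cacna1h share 158 bases with Tpsg1 on the opposite strand, and Tpsg1 had 1 count in 1 normoxic sample and 0 in the others. The strand setting of the counting is not given in the sources used here.

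Cacna1g (ENSMUSG00000020866; chromosome 11, 94408391 to 94474198, minus strand), the other T-type pore among the 10, held 48.2, 45.9 and 48.5 CPM in normoxic and 68.3, 54.3 and 62.5 CPM in hypoxic samples. Every hypoxic sample was above every normoxic one, but the 1.3-fold difference (log2 0.38, standard error 0.08) was under the fold threshold. The ratio of Cacna1h to Cacna1g, both per kilobase of exon, was 0.177, 0.164 and 0.204 in normoxic and 2.85, 3.25 and 2.93 in hypoxic samples. The more abundant T-type gene was therefore Cacna1g in each normoxic sample and Cacna1h in each hypoxic sample.

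The L-type genes differed in direction. Cacna1d (ENSMUSG00000015968; chromosome 14, 30039939 to 30491455, minus strand), an L-type pore that opens at less depolarized potentials than that of Cacna1c, had 215, 196 and 217 counts in normoxic and 59, 93 and 91 in hypoxic samples. In CPM these were 8.28, 7.44 and 8.80 against 2.32, 2.97 and 2.86, with no overlap. It was 2.99-fold lower in hypoxic PSCs (log2 fold change -1.58, standard error 0.15). Its exons share 589 bases with Chdh on the opposite strand, which had at most 2 counts in a sample. Cacna1c (ENSMUSG00000051331; chromosome 6, 118587240 to 119196418, minus strand), the L-type pore of heart and smooth muscle, held 30.1, 22.7 and 29.9 CPM in normoxic and 40.4, 38.1 and 40.4 CPM in hypoxic samples. The groups did not overlap, and the 1.44-fold difference (log2 0.52, standard error 0.10) was just under the threshold. Without normoxic replicate 1 it was past it, with a log2 fold change of 0.59.

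Cacna1a (ENSMUSG00000034656; chromosome 8, 84388440 to 84640246, plus strand), the P/Q-type pore of nerve terminals, held 33.8, 35.2 and 36.8 CPM in normoxic and 20.1, 21.2 and 21.8 CPM in hypoxic samples. The samples of each condition lay close together and the conditions did not overlap. The gene was 1.67-fold lower in hypoxic PSCs (log2 fold change -0.74, standard error 0.06). Exons of Cacna1a share 435 bases with Gm16183 on the opposite strand, which had at most 3 counts in a sample.

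**Figure D2:**
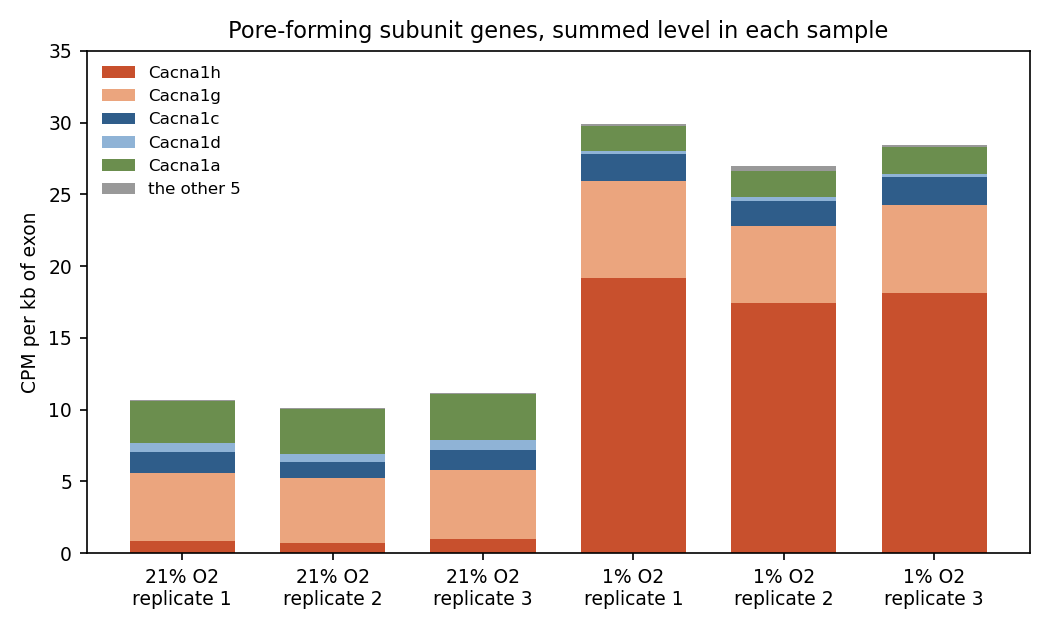
Summed level of the 10 pore-forming genes of the family in each sample, in CPM per kilobase of exon, stacked by gene; each bar is 1 sample. The bars of the normoxic samples reach 10.1 to 11.2 and those of the hypoxic samples 26.9 to 29.9, and Cacna1h is the part that differs most.

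Levels of different genes can be compared only per length, here as CPM per kilobase of annotated exon. The 10 pore-forming genes of the family summed to 10.7, 10.1 and 11.2 CPM per kilobase in normoxic and 29.9, 26.9 and 28.5 in hypoxic samples. T-type genes (Cacna1g, Cacna1h and the near-silent Cacna1i) made up 52.1% ± 0.42 of that sum in normoxic and 85.6% ± 1.13 in hypoxic samples (SD, n = 3 each). Cacna1h by itself went from 8.0% ± 0.70 to 64.1% ± 0.48 of it (SD, n = 3 each). The L-type sum was 1.96 ± 0.24 CPM per kilobase in normoxic and 2.09 ± 0.05 in hypoxic samples, and these totals overlapped. The sum of the N-, P/Q- and R-type genes went from 3.14 ± 0.15 to 2.0 ± 0.13 (SD, n = 3 each).

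Cacnb3 (ENSMUSG00000003352; chromosome 15, 98630840 to 98644529, plus strand) was the β gene with by far the highest level. It held 83.5, 79.7 and 86.5 CPM in normoxic and 176, 151 and 161 CPM in hypoxic samples, with a wide gap between the groups. The fold change was 1.95 (log2 0.96, standard error 0.07). Cacnb1 (ENSMUSG00000020882; chromosome 11, 98001508 to 98023034, minus strand), known as the β subunit of skeletal muscle, held 7.51, 9.15 and 7.63 CPM in normoxic and 18.3, 18.5 and 19.0 CPM in hypoxic samples. Its fold change was 2.3 (log2 1.2, standard error 0.10). Cacnb2 (ENSMUSG00000057914; chromosome 2), the main β subunit of heart, rested on 12, 23 and 11 counts in normoxic and 19, 20 and 30 in hypoxic samples, which overlapped, for a log2 fold change of 0.38 (standard error 0.34). The summed β level, Cacnb4 included, was 22.7, 22.1 and 23.5 CPM per kilobase in normoxic and 48.0, 41.9 and 44.5 in hypoxic samples. Set against the summed high-voltage pores, the types that bind β subunits, it went from 4.47 ± 0.12 to 11 ± 1.09 (SD, n = 3 each).

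Of the α2δ genes, Cacna2d1 (ENSMUSG00000040118; chromosome 5, 15934691 to 16374511, plus strand), the target of gabapentin, held 48.4, 38.4 and 43.5 CPM in normoxic and 48.3, 49.97 and 45.1 CPM in hypoxic samples. The groups overlapped, and the log2 fold change was 0.14 with a standard error of 0.09. Cacna2d2 (ENSMUSG00000010066; chromosome 9) had 2, 3 and 2 counts in normoxic and 0, 5 and 4 in hypoxic samples, around the 3 counts (0.094 to 0.122 CPM) that were set as the detection floor, which covers counting error only. No difference was detectable at this depth.

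By level per kilobase the normoxic order was Cacnb3 (20.8), Cacna1g (4.69), Cacna2d1 (3.50), Cacna1a (3.09), Cacnb1 (1.79), Cacna1c (1.3), Cacna1h (0.854), Cacna1d (0.648), Cacnb2 (0.045) and Cacna2d2 (0.011). Only Cacna2d1 and Cacna1a, among neighbours in that order, had ranges that overlapped. In hypoxic samples Cacna1h moved from rank 7 to rank 2. The hypoxic order was Cacnb3 (40.5), Cacna1h (18.2), Cacna1g (6.09), Cacnb1 (4.11), Cacna2d1 (3.85), Cacna1c (1.87), Cacna1a (1.84), Cacna1d (0.215), Cacnb2 (0.059) and Cacna2d2 (0.012). There, Cacna1c and Cacna1a overlapped. Of the 9 tested genes, 7 had conditions that did not overlap in CPM, 5 with the hypoxic samples above and 2 with them below, where 68.9% of all tested genes did not overlap (34.9% with the hypoxic samples above and 34.0% with them below). Without a fold threshold Cacna1g and Cacna1c were called as well, 7 of the 9, where 62.7% of all tested genes were.

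**Figure D3:**
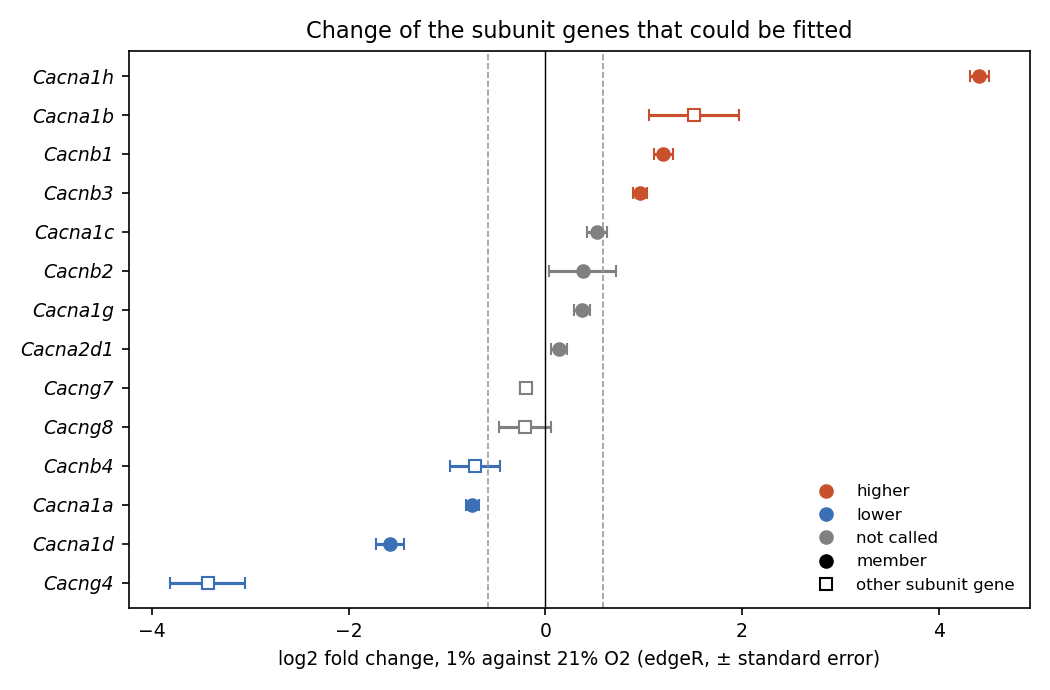
Log2 fold change of hypoxic against normoxic PSCs for the 14 subunit genes of the family that could be fitted, with standard errors from edgeR; filled circles are the genes described here, open squares the other subunit genes, and dashed lines mark a fold change of 1.5. Cacna1h at 4.42 stands apart from Cacna1b, Cacnb1 and Cacnb3 on the right, and Cacng4 at -3.44 lies farthest left.

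Of the other 16 subunit genes, 5 passed the filter, 1 was called higher and 2 lower, beside the 18.9% and 15.3% of all tested genes. The largest change among the 5 was that of Cacng4, a γ gene whose product is better known as a partner of AMPA receptors, with 120, 137 and 76 counts in normoxic and 8, 21 and 6 in hypoxic samples. It was 10.8-fold lower (log2 fold change -3.44, standard error 0.38). Cacng4 passed the filter on low counts through its normoxic samples only, so no p is given. With each sample left out in turn the log2 fold change ran from -4.11, without hypoxic replicate 2, to -3.08, and the call held each time. Cacng7, a relative of it and the γ gene with the highest level, held 98.3 ± 5.62 and 85.7 ± 2.61 CPM (SD, n = 3 each) and was under the fold threshold (log2 fold change -0.20, adjusted p = 0.0151 from edgeR). Cacng8 had 24, 31 and 25 counts against 21, 23 and 36.

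The calls of Cacna1b and Cacnb4 were less firm. Cacna1b, the N-type pore, had 8, 17 and 17 counts in normoxic and 22, 79 and 40 in hypoxic samples (log2 fold change 1.51, standard error 0.46). It passed the filter on low counts through its hypoxic samples only, so the p of the full fit is not given. It lost the call without normoxic replicate 1 (adjusted p = 0.0566 from edgeR) and without hypoxic replicate 2 (adjusted p = 0.0732). Cacnb4, the remaining β gene, had 49, 44 and 43 counts against 21, 45 and 30 (log2 fold change -0.71, standard error 0.25, adjusted p = 0.0343 from edgeR). It lost the call with DESeq2 (adjusted p = 0.0805) and when normoxic replicate 1 or 3 or hypoxic replicate 1 or 3 was left out, with adjusted p from 0.0738 to 0.115 in edgeR. Without normoxic replicate 1, 1 of the 5 genes was called. Exons of Cacnb4 share 1433 bases with a noncoding transcript on the opposite strand, A430018G15Rik, which had 33, 46 and 46 counts in normoxic and 41, 39 and 35 in hypoxic samples, about as many as Cacnb4. Cacnb4 has 8963 bases of exon, and only reads in the shared bases cannot be told apart without the strand setting. The other 11 genes did not pass the filter, and Cacna1e, Cacna1s, Cacng3 and Cacng5 were at 0 in all samples.

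Proteins that bind these channels were read from a list of 19 genes, of which 13 were tested, 3 called higher and 1 lower (median log2 fold change 0.07). Stac2, an adaptor that slows the inactivation of L-type channels, held 25.6, 22 and 27.1 CPM in normoxic and 74.9, 72.5 and 68.0 CPM in hypoxic samples (log2 fold change 1.53, standard error 0.08, adjusted p = 7.25e-07 from edgeR). Its relative Stac rose as well on few reads, from 11, 6 and 7 to 14, 33 and 31 counts (log2 fold change 1.47). Stac passed the filter on low counts through its hypoxic samples only, so no p is given. Stx1a, a syntaxin of vesicle fusion that binds presynaptic channels, went from 10.1 ± 1.09 to 21.3 ± 1.38 CPM (SD, n = 3 each; log2 fold change 1.07, adjusted p = 1.95e-05 from edgeR). The gene called lower was Gem, a small GTPase that binds β subunits and inhibits high-voltage channels, at 86.0 ± 6.13 and 54.7 ± 3.80 CPM (SD, n = 3 each; log2 fold change -0.65, adjusted p = 6.02e-05 from edgeR). Gem falls outside the rule for named genes and was chosen after its values were seen. Usp5, a deubiquitinase that stabilizes the Cacna1h channel, was at 128, 142 and 130 CPM in normoxic and 135, 137 and 148 CPM in hypoxic samples and was not called. It, too, was chosen after its values were seen.

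**Figure D4:**
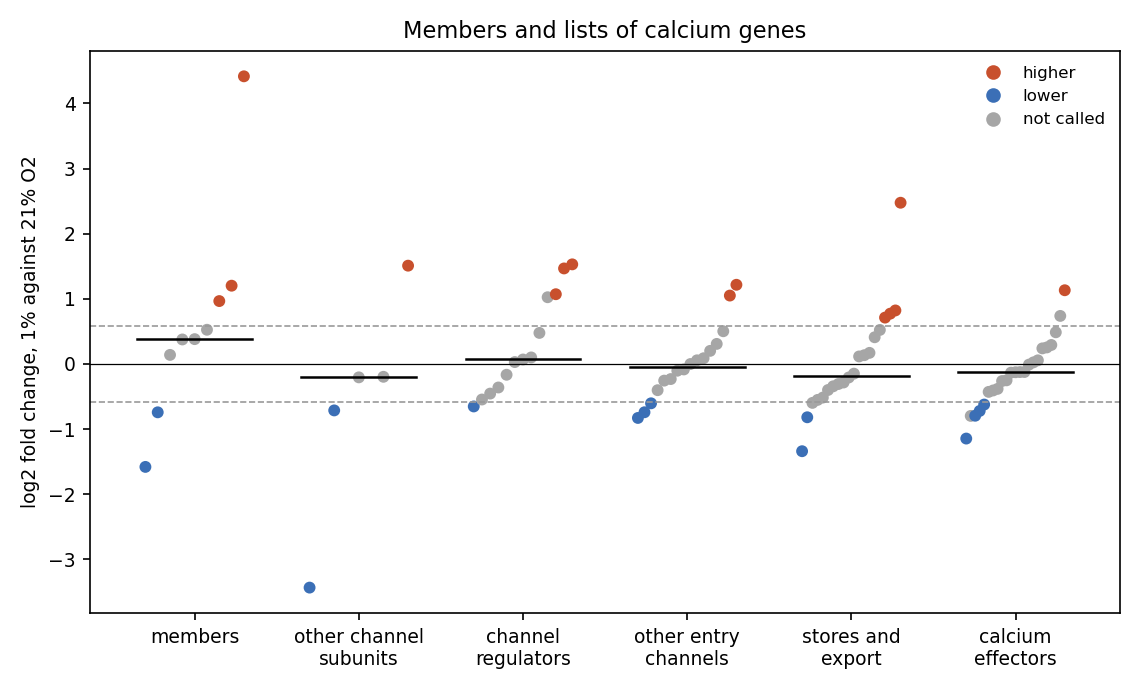
Log2 fold change, 1% against 21% O2, of the tested genes in each list of calcium genes; every point is 1 gene, black lines are medians, dashed lines mark a fold change of 1.5, and colour gives the call. The medians of the lists lie between -0.21 and 0.38, and Cacna1h is the highest point of all lists.

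Of 21 further entry channels, 16 were tested, 2 called higher and 3 lower (median log2 fold change -0.04). The called genes with the largest changes were Trpc1, from 8.26 ± 0.79 to 19.2 ± 1.40 CPM (log2 fold change 1.22), and Trpm4, a calcium-activated cation channel that carries sodium, from 26.5 ± 1.59 to 54.8 ± 3.32 CPM (1.05), with Trpv2 lower at 11.6 ± 0.56 and 6.49 ± 0.46 CPM (-0.83; SD, n = 3 each). The highest adjusted p of the 3 was 0.000109 from edgeR. The store-operated genes Stim1, Stim2, Orai1, Orai2 and Orai3 were not called, and they too were named after their values were seen. Stim1, the calcium sensor of the endoplasmic reticulum, was the nearest to a call at 54.3, 55.1 and 55.0 CPM in normoxic and 42.5, 42.2 and 39.7 CPM in hypoxic samples.

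Of 24 genes of calcium stores, pumps and mitochondrial uptake, 20 were tested, 4 called higher and 2 lower (median -0.18). Ryr1, the release channel coupled to L-type channels in skeletal muscle, rose on few reads, from 9, 8 and 3 to 33, 67 and 30 counts (log2 fold change 2.47, standard error 0.45). It passed the filter on low counts through its hypoxic samples only, so no p is given. The plasma membrane pump Atp2b4 fell from 10.1 ± 1.36 to 4.0 ± 0.82 CPM (log2 fold change -1.34), and Mcub, which dampens mitochondrial uptake, rose from 10.1 ± 1.36 to 17.9 ± 1.76 CPM (0.82; SD, n = 3 each), both with an adjusted p of at most 0.000276 from edgeR. The other called genes of the list, outside the rule for named genes, also went both ways. The more abundant plasma membrane pump Atp2b1 (99.1 ± 5.10 to 169 ± 4.61 CPM) and the sodium-calcium exchanger Slc8a3 (2.25 ± 0.10 to 3.69 ± 0.40 CPM) were higher, and the exchanger Slc8a1 (22.2 ± 3.23 to 12.6 ± 0.64 CPM) was lower (SD, n = 3 each).

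Of 24 effectors, which are calcineurin and its RCAN regulators, NFAT, MEF2, CREB and calmodulin kinase genes, 23 were tested, 1 called higher and 4 lower (median -0.13). Nfatc4, a transcription factor that calcineurin activates, rose from 105 ± 3.30 to 231 ± 14.7 CPM (log2 fold change 1.13, adjusted p = 8.67e-07 from edgeR). Camkk2, a kinase activated by calmodulin, fell from 76.6 ± 6.73 to 34.6 ± 1.67 CPM (-1.15, adjusted p = 2.24e-06), and Camk2a from 6.89 ± 1.14 to 3.97 ± 0.54 CPM (-0.80, adjusted p = 0.00276; SD, n = 3 each). The share called was 5 of 23 here, 6 of 20 among stores and export, 5 of 16 among entry channels and 4 of 13 among channel regulators, beside the 34.2% of all tested genes.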

How the data were processed

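Poly(A) RNA of mouse PSCs, kept beside mT3 PDAC organoids, was sequenced from 3 normoxic (21% O2) and 3 hypoxic (1% O2) samples after 48 h. Groups and replicate numbers come from the sample titles. After trimming, the authors aligned to GRCm38 using STAR (2.6.1b), and RSEM (1.3.1) estimated the counts per gene. The values they deposited are expected counts for 55426 features, not scaled between samples. None of the values had a fraction, so rounding changed nothing. RSEM splits reads shared by similar genes by an estimate. GENCODE M21, in which 55240 identifiers were found, gave names, positions and exon lengths. The annotation release used for counting is not given in the sources used here.

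Counts were compared with edgeR 4.0.16 (R 4.3.3, limma 3.58.1): filterByExpr (16207 genes kept), TMM scaling, quasi-likelihood F test, Benjamini-Hochberg adjustment over all tested genes. A gene was called at a fold change beyond 1.5 and an adjusted p under 0.05. A standard error is the log2 fold change divided by the square root of F. Levels per kilobase divide CPM by the union of annotated exons, which understates genes with many alternative exons. The tests were first tested on simulated data. Alternatives were DESeq2 1.42.0, other scalings and thresholds, no filter, a replicate block and each sample left out.

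The members and lists were chosen with earlier results of these data known. Named are all members, the other subunit genes that passed the filter, the 3 called genes with the largest change in each further list, 3 genes nearest to Cacna1h in pattern, and hypoxia genes as a check; names outside this rule were chosen after their values were seen. Figures were drawn with matplotlib 3.10.9.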

Additional observations from a re-analysis of the deposited data

How the results depend on the processing

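The 5 calls among the members (Cacna1h, Cacnb1 and Cacnb3 higher, Cacna1d and Cacna1a lower) were the same genes under DESeq2, DESeq2 size factors, upper-quartile scaling, no filter on low counts, the replicate block and in 6 of 6 fits with 1 sample left out. Without normoxic replicate 1, Cacna1c was called in addition. None of the 9 members that passed the filter changed sign in these fits. Without a fold threshold 10168 genes passed (62.7% of those tested), with 7 members, 9 channel regulators, 10 entry channels, 17 store and export genes and 13 effectors. With a fold change of 2, 3156 genes passed (19.5%), with 3 members (not Cacna1a and Cacnb3) and 2 genes each of the entry, store and effector lists. Without the filter, 5 of the other subunit genes were called, Cacna1i and Cacna2d3 in addition. With 1 sample left out the count for that list ran from 1 to 3. Without division by exon length the T-type share of the pore-forming level was 43.9% in normoxic and 78.6% in hypoxic samples. Once the group means were subtracted, the samples numbered 1, 2 and 3 correlated across conditions at 0.14, 0.14 and 0.04. These values are low, but each normoxic sample correlated best with the hypoxic sample of its own number. The macrophage markers stood in the same order of replicates in both conditions. Lyz2, for example, was at 653, 1164 and 883 CPM in normoxic and 315, 546 and 378 CPM in hypoxic replicates 1, 2 and 3. The labels do not say whether the numbers pair the samples, and the main fit did not pair them. With the replicate block 5572 genes were called against 5547, and the member count stayed at 5. The cause of these shifts was not tested. Cacna2d2 and 11 other subunit genes failed the filter on low counts.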

Other observations

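Several genes that failed the filter on low counts had nearly all of their reads in hypoxic PSCs, and they were picked out after their values were seen. Cacna1i, the remaining T-type pore, had 1, 1 and 0 counts in normoxic and 6, 10 and 5 in hypoxic samples. DESeq2 gave it an adjusted p of 0.049997, at the edge of the threshold, and edgeR without the filter 0.0143. Cacna2d3, an α2δ gene, had 0 counts in every normoxic sample and 1, 6 and 2 in hypoxic samples, with an adjusted p of 0.0438 from edgeR without the filter. Rimbp2, which links channels to release sites in nerve terminals, had 0 in every normoxic sample and 6 in each hypoxic sample. These counts lie close to the 3 that could be told from none.

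The genes whose log2 CPM followed that of Cacna1h most closely over the 6 samples were Smtn (smoothelin, of the contractile cytoskeleton; r = 0.99990), P4ha2 (a collagen prolyl hydroxylase; r = 0.99974) and 1700001L05Rik (r = 0.99971). With 2 conditions this likeness is common, as 649 of 14231 genes at a mean of at least 1 CPM had r above 0.99. Smtn held 49.9, 47.7 and 51.5 CPM in normoxic and 118, 115 and 115 CPM in hypoxic samples.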
